A study of Mus musculus with 9 samples.

Results

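Chromatin accessibility around 10 immediate early and AP-1 genes was examined in alphaTC1 cells, a murine pancreatic alpha cell line. The assay was ATAC-seq, in which a transposase cuts open DNA and the cuts are sequenced and counted by region. The genes were taken by name: the Fos family (Fos, Fosb, Fosl1, Fosl2), the Jun family (Jun, Junb, Jund), Atf3, Egr1 and Nr4a1. Their members are the consensus regions that overlap a gene body or the 10 kb on either side of it in mm10. There were 38 such regions of 80827 in all, from 1 at Egr1 to 6 at Atf3. Cells had been transduced 5 days earlier with an empty vector, with an shRNA against Smndc1 (labelled sh95), which encodes a splicing factor with a Tudor domain, or with an shRNA against Atrx, a chromatin remodeler. Each group held 3 biological replicates of this 1 line. The labels do not say whether these came from separate transductions, so p-values measure the spread between these samples. Both shRNA groups were compared with the same empty vector libraries. In bulk cells, a larger share of cells with an open region and more cuts per open cell cannot be told apart.

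AP-1 is a dimer of basic leucine zipper proteins. Fos family proteins need a Jun partner, whereas Jun proteins can also pair with each other and with ATF proteins. The dimers bind TGA(C/G)TCA or the related cyclic AMP response element TGACGTCA. Most of these genes are immediate early genes, transcribed within minutes of a stimulus without new protein synthesis, and in islet cells cyclic AMP, calcium and stress kinase signals are among their inducers.

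The libraries held 5.29 to 8.15 M counts each, and the 38 member regions together held 7548 to 12948 counts, or 0.139 to 0.178% of a library. Replicate 3 of every group stood apart: the strongest 10% of all regions held 38.4 to 38.7% of counts there and 43.1 to 48.7% in the other 6 libraries. Results at the member regions are therefore given with and without replicate 3, and with TMM factors (1 scaling factor per library) and trended offsets (a scaling that follows the level of the region). Of the alpha cell markers with a RefSeq start in the table used, Gcg, Irx2 and Pcsk2 all had an open region at the start, at 57.4, 78.2 and 59.6 CPM per kb (counts divided by the TMM-scaled library size in M and by region length). Markers of delta and PP cells (0 of 3), acinar cells (0 of 4), duct (0 of 1), fibroblasts (0 of 2) and endothelium (0 of 1) had none there, while 1 of 4 beta cell markers (Nkx6-1, 36.6 CPM per kb) and 1 of 3 immune markers (Cd68, 23.7) did. Because an shRNA acts on RNA, open chromatin at the targeted genes does not check the knockdowns.

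The promoters of 8 of the 10 genes were matched in the RefSeq table (GRCm38.p6), and 4 of the 5 that hold TGACG, the motif most frequent among the members, are shown (Junb, with 1 copy, is the other). All 4 lie wholly within the open start regions described next. Each runs from 250 bases before the annotated start to the base before it. Capitals mark TGACG (the core of the cyclic AMP response element), TATAAA and the EGR site GCGGGGGCG, on either strand, so that CGTCA and CGCCCCCGC are the reverse complements. The windows are chr12:85473640-85473889 (plus strand) for Fos, chr7:19310046-19310295 (minus) for Fosb, chr1:191183334-191183583 (minus) for Atf3 and chr15:101266596-101266845 (plus) for Nr4a1.
Fos: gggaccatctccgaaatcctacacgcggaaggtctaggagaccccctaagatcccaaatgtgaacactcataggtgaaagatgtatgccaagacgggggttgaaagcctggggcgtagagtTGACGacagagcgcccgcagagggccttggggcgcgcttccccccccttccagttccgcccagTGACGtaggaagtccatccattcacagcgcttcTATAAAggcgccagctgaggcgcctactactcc
Fosb: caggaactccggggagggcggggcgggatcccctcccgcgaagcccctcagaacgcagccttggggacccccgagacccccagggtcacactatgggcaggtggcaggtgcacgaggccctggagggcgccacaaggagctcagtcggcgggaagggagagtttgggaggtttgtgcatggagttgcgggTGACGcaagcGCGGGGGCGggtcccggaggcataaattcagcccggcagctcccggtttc
Atf3: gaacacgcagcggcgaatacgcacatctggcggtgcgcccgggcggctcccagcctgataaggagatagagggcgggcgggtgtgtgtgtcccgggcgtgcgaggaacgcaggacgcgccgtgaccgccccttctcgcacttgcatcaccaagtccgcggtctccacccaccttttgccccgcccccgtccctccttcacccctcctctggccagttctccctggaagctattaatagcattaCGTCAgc
Nr4a1: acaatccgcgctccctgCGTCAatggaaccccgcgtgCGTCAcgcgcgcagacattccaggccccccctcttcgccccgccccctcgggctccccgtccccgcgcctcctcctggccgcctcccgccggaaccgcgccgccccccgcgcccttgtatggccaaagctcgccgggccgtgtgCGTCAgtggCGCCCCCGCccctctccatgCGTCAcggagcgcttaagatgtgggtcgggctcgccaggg

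TGACG occurred in 5 of the 8 promoters (Fos, Fosb, Junb, Atf3, Nr4a1), against 20.2% of 21263 coding promoters of the same length. Fos held 2 copies, at -129 and -66 counted from the start, and a TATAAA at -33, which 11.6% of all promoters hold. Nr4a1 held 4 copies of TGACG, a number reached by 0.188% of all promoters. Fosb and Junb held 1 copy each, at -60 and -106, and the Atf3 copy lay at -7. GCGGGGGCG, read by EGR proteins, was found in Fosb, Fosl2 and Nr4a1 and in 3.41% of all promoters. None of the 8 windows held TGANTCA, searched with any middle base (6.13% of all), or the whole TGACGTCA (1.92%). The other EGR site GCGTGGGCG (0.720%) and a CArG box (1.39%), the sequence bound by serum response factor, were absent too. Bases further upstream were not searched, nor were Fosl1 and Egr1, which had no promoter in the RefSeq table. The GC content of the 8 windows was 47.6% at Jund and from 58.4% (Fos) to 74.4% (Nr4a1) at the others, against a median of 55.6% for coding promoters. The shares of all promoters are not matched for GC content, and its part in the matches was not tested. Both strands were searched, a whole TGACGTCA also counts as TGACG, and a match describes letters only.

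The member regions were among the more open in these cells. Their median level with empty vector was 40.4 CPM per kb, against 9.26 for all regions, and 35 of 38 were above that median. Regions at a RefSeq start, 9699 in all, had a median of 39.9 CPM per kb, close to that of the members. The top 10% of all regions began at 42.9 CPM per kb and took in 16 of the 38 (42.1%). Member regions were also wider, with a median of 719.5 bp against 501 bp. By place, 7 regions overlapped the stretch from 250 bases before to 50 after an annotated start, 9 others touched gene bodies, 9 lay upstream, 10 downstream and 2 outside the Fosl1 body, and 1 was at an end of Egr1. The Fosl2 start region ends 198 bp before the gene. The median was 64.6 CPM per kb at starts, 41.3 upstream, 40.1 at bodies and 18.6 downstream. Another coding gene's 10 kb window shared 16 of the regions, and 6 overlapped the start of another gene.

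**Figure D1:**
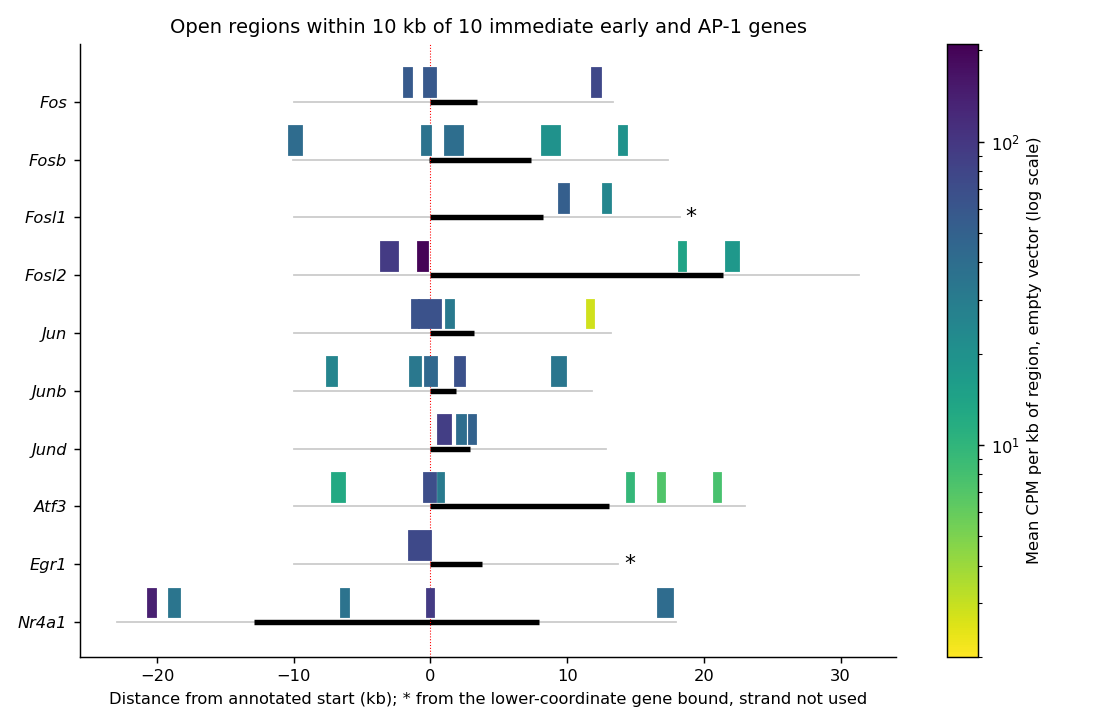
Positions of the 38 open regions around the 10 genes, as distance in kb from the annotated start (for Fosl1 and Egr1 from the lower-coordinate bound of the gene). Black bars are gene bodies, grey lines the 10 kb on either side, and coloured blocks the regions, coloured by mean CPM per kb with empty vector on a log scale; the darkest block is the Fosl2 start at 202 CPM per kb and the palest lies downstream of Jun at 2.78.

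At the starts, Fosl2 was the most open, with 217, 235 and 155 CPM per kb in the 3 empty vector libraries (202 ± 42.3, mean ± SD). Its lowest library was above the highest of every other gene. Below it came Nr4a1 (94.2 ± 16.7), the first region in the Jund body (89.7 ± 22.3), Egr1 (74.7 ± 10.7), Atf3 (69.3 ± 15.2), Jun (64.6 ± 15.6), Fos (58.1 ± 12.8), Junb (44.4 ± 7.68) and Fosb (35.7 ± 2.35). The libraries of each neighbouring pair in this order overlapped, so that only the step from Fosl2 to Nr4a1 was clear of the spread. With either shRNA the same held: Fosl2 stood first, Fosb last, and its gap to Nr4a1 was the 1 step without overlap. Among 9699 regions at a RefSeq start, Fosl2 lay at percentile 99.8 of the CPM per kb, Nr4a1 at 91.8, Fos at 70.9, Junb at 56.3 and Fosb at 43.9.

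Fos encodes c-Fos, the founding member of its family. Its start region (chr12:85473424-85474267) read 43.2, 61.5 and 42.3 CPM in replicates 1 to 3 with empty vector, 46.2, 61.2 and 37.9 with Smndc1 shRNA, and 68.4, 51.4 and 33.4 with Atrx shRNA. The groups overlapped throughout. The other regions, 1.6 kb upstream and 12.2 kb downstream of the start, lay at 57.5 and 76.1 CPM per kb, so that the downstream region was the most open of the 3. Fosb, whose product pairs with Jun proteins, had 24.7, 25.4 and 22.4 CPM at its start with empty vector, 22.6, 23.2 and 19.5 with Smndc1 shRNA, and 30.5, 22.3 and 21.1 with Atrx shRNA. These groups overlapped as well. Its most open region per kb lay 9.9 kb upstream (41.3 CPM per kb), closely followed by 1 in the gene body (40.1).

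Fosl1 encodes Fra-1. It had no region in its body or at its ends; its 2 regions lay 1.2 and 4.4 kb outside the body and overlapped the starts of Ccdc85b and Fibp, so they are read as regions near Fosl1 only. The first read 38.8, 40.6 and 29.1 CPM with empty vector, 37.6, 42.7 and 32.7 with Smndc1 shRNA, and 43.0, 35.1 and 39.3 with Atrx shRNA. Fosl2 encodes Fra-2 and was the opposite case. Its start region (chr5:32135554-32136274) read 157, 170 and 111 CPM with empty vector, 146, 184 and 125 with Smndc1 shRNA, and 214, 173 and 110 with Atrx shRNA, and a region 3.0 kb upstream of the start lay at 94.3 CPM per kb. The 2 other regions, in the body and downstream, lay at 14.0 and 17.5. Replicate 3 was the lowest library in every group at the Fosl2 start, and the groups overlapped.

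Jun encodes c-Jun, the partner of most Fos proteins. Its start region (chr4:95051434-95053070), the widest of the 38 at 1637 bp, read 121, 120 and 76.4 CPM with empty vector, 104, 140 and 77.7 with Smndc1 shRNA, and 160, 111 and 92.8 with Atrx shRNA. It also covers the start of the antisense gene Junos. Junb, often a weaker activator than c-Jun, had 44.1, 40.3 and 31.2 CPM at its start (chr8:84978260-84979128) with empty vector, 38.7, 41.5 and 29.4 with Smndc1 shRNA, and 51.1, 38.9 and 33.3 with Atrx shRNA. A region over the far end of the Junb gene, centred 2.2 kb from the start and mostly downstream of the gene, was more open per kb, at 66.0 against 44.4. Jund, the Jun gene that many cells express without stimulation, had no region over the annotated start. It had 3 separate regions further in, the last mostly downstream of the gene. The first of these, centred 1.0 kb inside, read 89.5, 105 and 62.9 CPM with empty vector, 74.9, 94.6 and 53.6 with Smndc1 shRNA, and 116, 69.3 and 70.9 with Atrx shRNA. At the Jun and Junb starts and the first Jund region the libraries of the 3 groups overlapped with TMM factors. With trended offsets the first Jund region was lower in all Smndc1 shRNA libraries than in all of empty vector (8.45% of all regions were). The second Jund region was then above empty vector with Smndc1 shRNA (7.73% of all regions) and with Atrx shRNA (7.31%).

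Atf3 encodes a stress-induced basic leucine zipper protein that pairs with Jun proteins. Its start region (chr1:191182925-191183836) read 63.5, 76.9 and 49.2 CPM with empty vector, 54.7, 61.0 and 48.7 with Smndc1 shRNA, and 79.2, 64.9 and 46.3 with Atrx shRNA. The 3 regions downstream of the Atf3 body were weak, at 7.24 to 9.52 CPM per kb. Egr1 encodes a zinc finger factor induced with Fos. Its single region, at a gene end, read 124, 134 and 100.5 CPM with empty vector, 114, 125 and 100.5 with Smndc1 shRNA, and 145, 107 and 93.2 with Atrx shRNA. Nr4a1 encodes the orphan nuclear receptor Nur77. Its start region (chr15:101266573-101267106) read 52.9, 57.7 and 40.4 CPM with empty vector, 42.4, 55.2 and 38.6 with Smndc1 shRNA, and 58.9, 54.2 and 40.9 with Atrx shRNA. The most open region near Nr4a1 per kb was not at this start but 20.4 kb upstream of it, 7.1 kb outside the annotated gene, at 140 CPM per kb. The groups overlapped at the start regions of Atf3, Egr1 and Nr4a1.

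**Figure D2:**
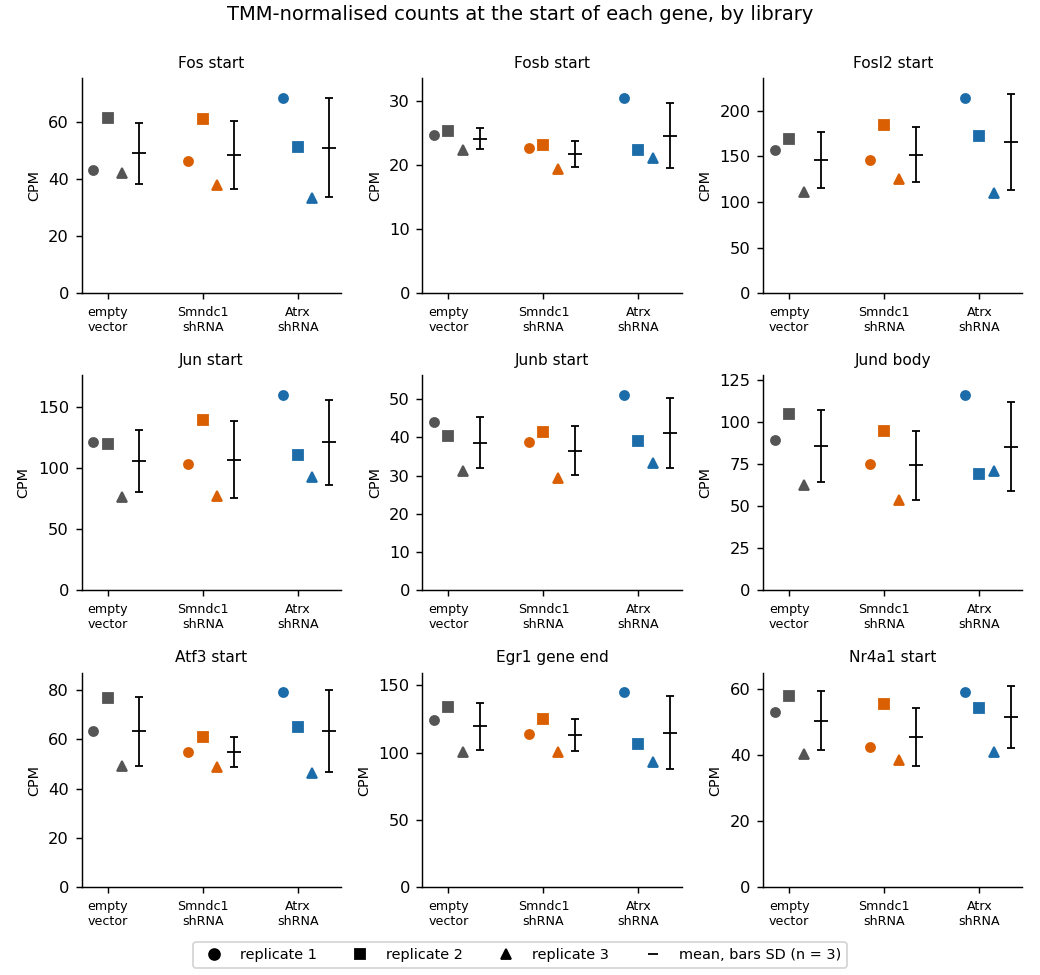
TMM-normalised CPM in each of the 9 libraries at the start region of 7 genes, the gene-end region of Egr1 and the first region in the Jund body (Fosl1 has none). Symbols are replicates 1 to 3, and black marks the group mean with SD bars (n = 3); the groups overlap in all 9 panels, and replicate 3 is the lowest point of every group except for Atrx shRNA at Jund.

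With Smndc1 shRNA, no region of these genes passed the test against empty vector. The call was 0 of 38 with edgeR's quasi-likelihood test at an adjusted p under 0.05, where 0.156% of all regions were called. It was also 0 of 38 with trended offsets (1.15% of all regions), with DESeq2 (35 of 38 with an adjusted p; 0.0628% of the 41402 regions that had one) and with limma voom (0.0348%). At an unadjusted p under 0.05, 2 of 38 passed in edgeR with TMM factors (1 higher, 1 lower, 8.09% of all regions), 5 with trended offsets (12.5%), 0 in DESeq2 (6.87%) and 1 in limma voom (8.24%). The smallest adjusted p in edgeR was 0.607 with TMM factors and 0.134 with trended offsets. The median log2 fold change was -0.08, with 27 of 38 regions below 0, against a median of 0.02 over all regions. All 3 libraries were below all 3 of empty vector at 1 of 38 regions (7.02% of all regions) and above at 0 (5.76%). With trended levels these counts were 4 below (8.45%) and 4 above (7.73%).

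With Atrx shRNA, again no member region passed against empty vector: 0 of 38 with TMM factors, where 0% of all regions were called, 0 with trended offsets (0.271%), 0 in DESeq2 (0%) and 0 in limma voom (0%). At an unadjusted p under 0.05 the counts were 1 in edgeR with TMM factors (higher, 5.75% of all regions), 2 with trended offsets (9.60%), 2 in DESeq2 (4.74%) and 1 in limma voom (5.50%). The smallest adjusted p in edgeR was 0.647 with TMM factors and 0.123 with trended offsets. The median log2 fold change was 0.05, with 24 of 38 above 0, against 0.01 over all regions. Libraries did not overlap at 1 region, higher with the shRNA (4.83% of all regions higher, 5.65% lower). With trended levels 6 were higher (7.31%) and 1 lower (7.60%).

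Between the shRNAs, 0 of 38 regions differed with TMM factors (0.0759% of all regions called), with trended offsets (0.591%), in DESeq2 (34 with an adjusted p; 0.0562% of the 32056 regions that had one) or in limma voom (0.0112%). At an unadjusted p under 0.05 there were 2 in edgeR with TMM factors (5.40% of all regions), 5 with trended offsets (9.31%), 2 in DESeq2 (4.34%) and 1 in limma voom (4.89%). The smallest adjusted p in edgeR was 0.701 with TMM factors and 0.234 with trended offsets. Libraries did not overlap at 1 region higher (5.03% of all regions) and 1 lower (5.15%), and with trended levels at 1 higher (7.03%) and 7 lower (6.97%). Fold changes of Smndc1 shRNA over Atrx shRNA leaned below 0, with 32 of 38 regions negative and a median log2 fold change of -0.15 against 0.00 over all regions. All 8 start regions, the Egr1 gene end included, were on the negative side with TMM factors and 7 of 8 with trended offsets, each with an interval that includes 0. The Jund region listed above is not among these 8. Levels at many of these regions varied together between libraries, so the signs are not independent, and no test of the whole list was made.

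**Figure D3:**
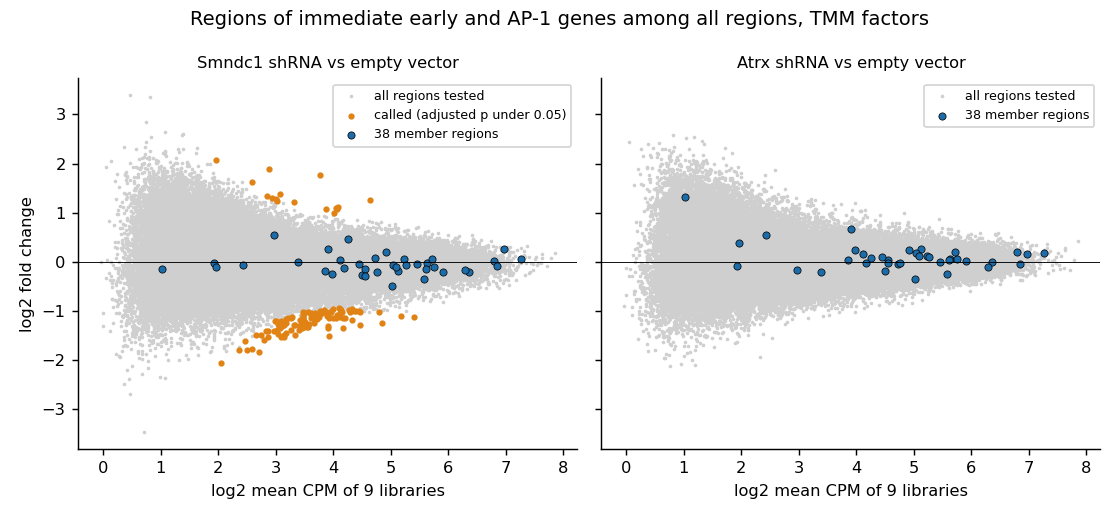
Log2 fold change against log2 mean CPM of the 9 libraries for all 80345 regions tested (grey), those called (orange) and the 38 member regions (blue), for each shRNA against empty vector in edgeR with TMM factors. Most member regions lie towards the high levels; the 1 farthest from 0 is the weak region downstream of Jun, at 1.31 with Atrx shRNA. None is called, and 0 regions are called with Atrx shRNA.

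The limits of these comparisons were narrower in the fit of gene windows, where counts were summed over each gene's regions. That fit also has its own scaling and its own estimate of the spread. Egr1, with 1 region and nothing to sum, had an SE of 0.27 as a region and 0.10 as a window (Smndc1 shRNA against empty vector, TMM factors). What each difference contributed was not tested. In edgeR with TMM factors, 0 of 10 windows passed in any comparison; over all 17004 coding gene windows, 0% were called with Smndc1 shRNA, 0% with Atrx shRNA and 0.0118% between the shRNAs. The 95% intervals of the 10 windows spanned 0.750 to 1.31-fold with Smndc1 shRNA against empty vector, 0.827 to 1.40-fold with Atrx shRNA, and 0.712 to 1.17-fold between the shRNAs. Each interval thus lay inside a 2-fold change in either direction. Of single regions, 35, 33 and 33 of 38 had an interval inside 2-fold in the 3 comparisons, as had all 26 regions of at least 20 CPM. Among the start regions with TMM factors, Fosl2 (log2 fold change 0.06 ± 0.29, SE) and Jun (0.02 ± 0.28) had the widest error with Smndc1 shRNA. Fosb (-0.15 ± 0.23) had the narrowest. With trended offsets this order turned round: Fosl2 (0.08 ± 0.10) had the narrowest error and Fosb (-0.09 ± 0.17) the widest, with Jun at 0.04 ± 0.10.

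By family, the estimates for the windows of the Fos genes lay on both sides of 0, and none passed. Fosb stood at 129.5, 127 and 128 CPM with empty vector, 106, 121 and 108 with Smndc1 shRNA, and 127, 113.5 and 120.4 with Atrx shRNA. All 3 Smndc1 shRNA libraries were below the 3 of empty vector, with a log2 fold change of -0.20 ± 0.09 and an adjusted p of 0.585 in edgeR. Fosl2 went the other way, at 241, 243 and 219.9 with empty vector against 246, 292 and 258 with Smndc1 shRNA and 301, 265 and 226 with Atrx shRNA. Its log2 fold changes were 0.18 ± 0.10 (adjusted p = 0.683 in edgeR) and 0.17 ± 0.10 (adjusted p = 0.718), and the groups stood apart for Smndc1 shRNA only. Fos had -0.16 ± 0.12 with Smndc1 shRNA and 0.01 ± 0.12 with Atrx shRNA, and Fosl1 0.02 ± 0.12 and 0.12 ± 0.12.

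The Jun genes were on the positive side with Atrx shRNA and mixed with Smndc1 shRNA. Jun had 0.21 ± 0.13 with Atrx shRNA and 0.08 ± 0.13 with Smndc1 shRNA. Junb had 0.11 ± 0.08, with 159, 146.2 and 145.8 CPM against 141, 143 and 133 with empty vector, which did not overlap, and 0.00 ± 0.08 with Smndc1 shRNA. Jund had 0.06 ± 0.14 and -0.11 ± 0.14. The Atf3 window showed the largest step between the shRNAs. It read 83.2, 91.5 and 82.3 CPM with empty vector, 78.7, 80.2 and 80.0 with Smndc1 shRNA, and 104, 98.9 and 89.6 with Atrx shRNA. The shRNAs differed by a log2 fold change of -0.29 ± 0.09 and did not overlap, at an unadjusted p of 0.00688 and an adjusted p of 0.862 in edgeR over all windows. Egr1 and Nr4a1 lay near 0 with Atrx shRNA (-0.04 ± 0.10 and -0.02 ± 0.08) and had -0.05 ± 0.10 and -0.11 ± 0.08 with Smndc1 shRNA. In all, libraries did not overlap with empty vector at 1 window higher (Fosl2) and 3 lower (Fosb, Atf3, Nr4a1) of 10 with Smndc1 shRNA, where 5.96% and 7.82% of all windows did so. With Atrx shRNA there was 1 higher (Junb) and 1 lower (Fosb; 6.83% and 7.94%). Between the shRNAs, 0 windows were higher and 3 lower with Smndc1 shRNA (Junb, Atf3, Nr4a1; 5.82% and 4.83%). These are levels with TMM factors, and some of the genes named changed with trended levels. Atf3 then overlapped empty vector with Smndc1 shRNA and stood above it with Atrx shRNA. Junb and Nr4a1 then overlapped between the shRNAs, and Fosl1 was lower with Smndc1 shRNA. The counts with trended levels were 1 higher and 2 lower of 10 with Smndc1 shRNA, and 2 and 1 with Atrx shRNA. Between the shRNAs they were 0 and 2. The share of all windows is not given for trended levels, so nothing is read from these counts.

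**Figure D4:**
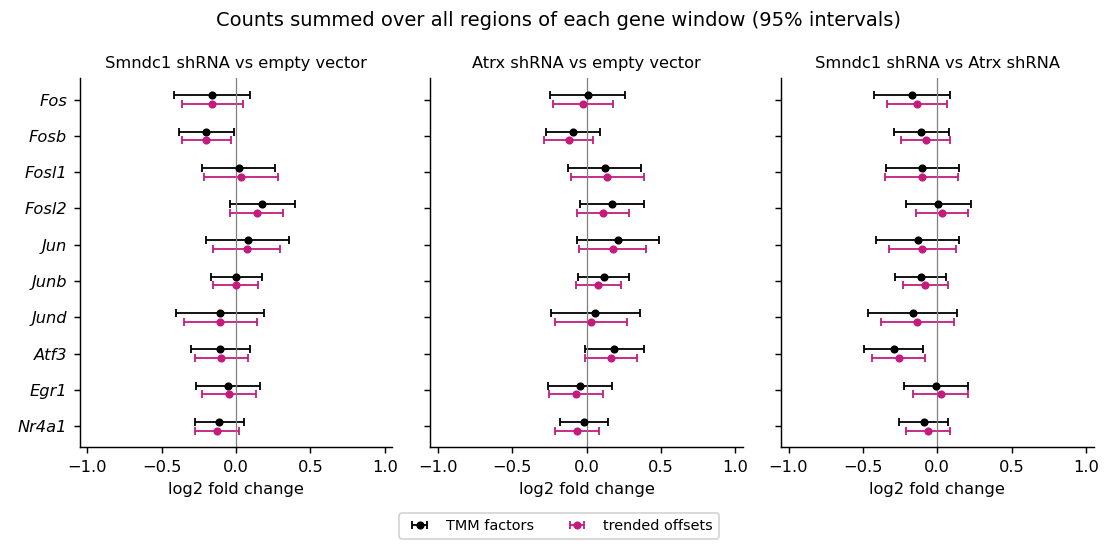
Log2 fold change of the counts summed over all regions of each gene's window, with 95% intervals, for the 3 comparisons in edgeR with TMM factors (black) and trended offsets (magenta). All intervals with TMM factors lie between -0.49 and 0.49, and the intervals that leave out 0 are those of Fosb with Smndc1 shRNA and of Atf3 between the shRNAs.

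Leaving replicate 3 out of every group kept the count at 0 of 38 regions and 0 of 10 windows in all 3 comparisons, with TMM factors and with trended offsets. The members' levels themselves moved with these libraries. Replicate 3 was the lowest library in all 3 groups at 21 of 38 member regions (55.3%), at 16.3% of all regions and at 78.4% of the strongest 10%. With trended offsets the share was 7.89% of member regions and 7.54% of all. Summed over the 38 regions, levels were 1538 ± 220 CPM with empty vector, 1486 ± 232 with Smndc1 shRNA and 1605 ± 330 with Atrx shRNA (mean ± SD, n = 3 each), differences smaller than the spread. The window whose 9 values followed the mean of the members most closely was Smim40 (Pearson r = 0.986 over 9 libraries), followed by Aldh18a1 (0.968), Mier3 (0.966), Tuba1b (0.964) and Sox12 (0.960). Among the members themselves r ran from 0.475 (Fosl1) to 0.935 (Jund), and the share of counts in the strongest 10% of regions, a property of the library, had r = 0.822 with the same mean. All windows are read from the same 9 libraries, so differences between libraries enter every r, and the values are descriptions.

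A few single regions had an unadjusted p under 0.05 and are named here after their values were seen. The region 9.9 kb upstream of Fosb (chr7:19319458-19320410) read 40.7, 44.0 and 33.3 CPM with empty vector, 27.1, 31.7 and 25.5 with Smndc1 shRNA, and 38.2, 29.2 and 24.7 with Atrx shRNA. Every Smndc1 shRNA library was below every empty vector library (log2 fold change -0.49 ± 0.24, adjusted p = 0.613 in edgeR). In the Jun body (chr4:95050531-95051050) the values were 20.6, 15.1 and 14.6 with empty vector, 26.3, 23.9 and 19.0 with Smndc1 shRNA, and 17.7, 21.4 and 13.6 with Atrx shRNA. Here the lowest Smndc1 shRNA library overlapped the highest of empty vector (0.46 ± 0.23, adjusted p = 0.607 in edgeR). The region 6.7 kb upstream of Atf3 (chr1:191189614-191190551) read 13.5, 11.4 and 10.8 with empty vector, 15.1, 15.1 and 12.4 with Smndc1 shRNA, and 21.2, 19.7 and 15.9 with Atrx shRNA. All 3 Atrx shRNA libraries were above both other groups, with a log2 fold change over empty vector of 0.67 ± 0.23, an unadjusted p of 0.00443 and an adjusted p of 0.647 in edgeR. With trended offsets it was 0.73 ± 0.22, with an adjusted p of 0.123. In the Fosl2 body (chr5:32154660-32155160), Smndc1 shRNA libraries read 10.7, 6.95 and 13.0 against 6.26, 6.68 and 5.68 with Atrx shRNA (0.72 ± 0.29, adjusted p = 0.701 in edgeR). In the Atf3 body (chr1:191182311-191182811) they read 14.7, 13.7 and 11.3 against 22.5, 19.1 and 14.0, which overlapped (-0.48 ± 0.23, adjusted p = 0.905 in edgeR).

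**Figure D5:**
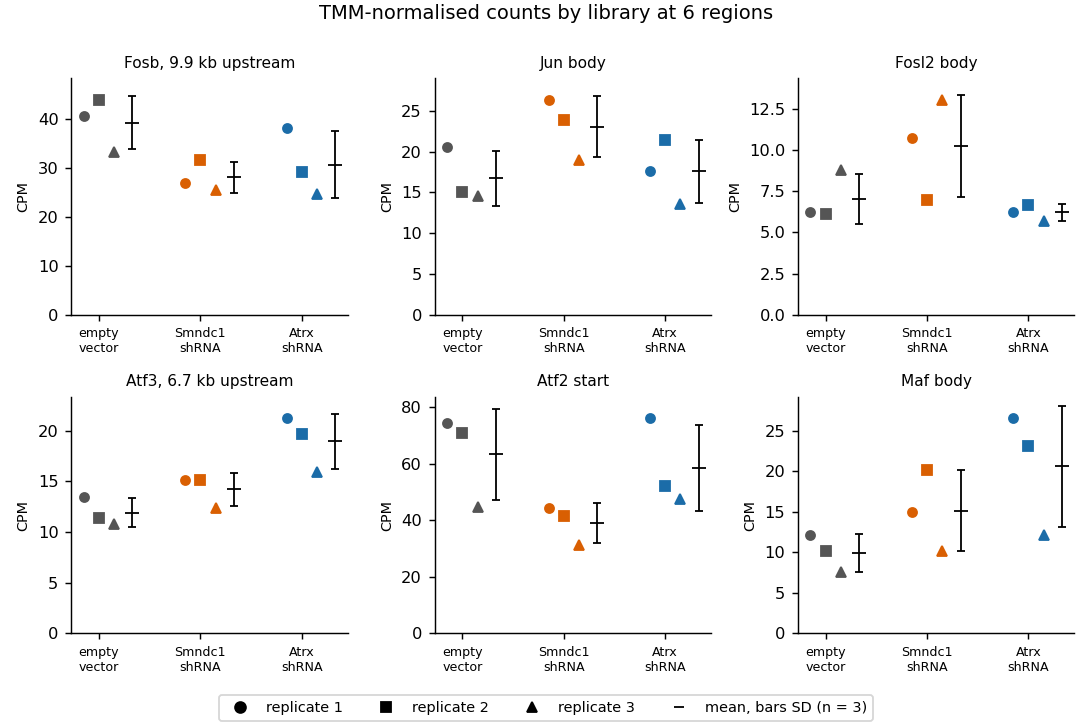
TMM-normalised CPM in each library at 4 member regions with an unadjusted p under 0.05 and at 2 regions of related genes, Atf2 and Maf, that passed with trended offsets. Symbols are replicates 1 to 3, and black marks the group mean with SD bars (n = 3); Atrx shRNA stands above both other groups upstream of Atf3, and Smndc1 shRNA below both at the Atf2 start.

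Other immediate early, AP-1 partner and upstream genes were examined as a list of 88 genes with 399 regions, of which 397 were tested. With TMM factors 0 passed in each comparison in edgeR (28, 23 and 15 at an unadjusted p under 0.05 for Smndc1 shRNA, Atrx shRNA and between them), and 0 in DESeq2 and limma voom. These counts are 7.05, 5.79 and 3.78% of the list, against 8.09, 5.75 and 5.40% of all regions. With trended offsets, edgeR called 3 with Smndc1 shRNA (1 higher, 2 lower), 2 with Atrx shRNA (both higher) and 3 between the shRNAs (all lower with Smndc1 shRNA). These are 0.756, 0.504 and 0.756% of the list, against 1.15, 0.271 and 0.591% of all regions. Medians of the list with TMM factors were 0.01, 0.05 and -0.02 on the log2 scale.

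The region that fell most firmly with Smndc1 shRNA under trended offsets was at the start of Atf2 (chr2:73892274-73893196), which encodes a leucine zipper protein that pairs with c-Jun. It read 74.3, 70.9 and 44.8 CPM with empty vector, 44.4, 41.5 and 31.1 with Smndc1 shRNA, and 76.1, 52.1 and 47.7 with Atrx shRNA. Every Smndc1 shRNA library was below every other library, although its highest, 44.4, was close to the empty vector replicate 3 at 44.8. The log2 fold change was -0.64 ± 0.13 with an adjusted p of 0.000833 in edgeR with trended offsets, and the call held in 9 of 9 fits that left out 1 library. With TMM factors it was -0.70 ± 0.26 with an adjusted p of 0.385. The start of Gm10822 lies in the same region. Between the shRNAs it also fell, by 0.53 on the log2 scale (adjusted p = 0.0167 in edgeR with trended offsets, 0.820 with TMM factors). That call was lost without Smndc1 shRNA replicate 2 (adjusted p = 0.123), Atrx shRNA replicate 1 (0.240) or Atrx shRNA replicate 3 (0.0506).

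Nab1, a corepressor of EGR proteins, fell with Smndc1 shRNA under trended offsets at a region in its body (-0.86 ± 0.17, adjusted p = 0.00114 in edgeR, 0.159 with TMM factors). Its levels were 44.6, 36.1 and 25.5 CPM with empty vector against 19.1, 27.8 and 9.47, and the call was lost without empty vector replicate 1 (adjusted p = 0.111). Pim1, a serine/threonine kinase gene, rose at a region in its body that also covers the start of Gm26885 (0.66 ± 0.17, adjusted p = 0.0182 in edgeR with trended offsets, 0.466 with TMM factors). With Atrx shRNA, Maf, whose leucine zipper protein binds glucagon gene sequences in alpha cells, rose at a region in its body (1.11 ± 0.22, adjusted p = 0.00332 in edgeR with trended offsets, 0.226 with TMM factors). It read 12.1, 10.1 and 7.51 CPM with empty vector and 26.5, 23.1 and 12.2 with Atrx shRNA, which did not overlap. Bach2, a leucine zipper repressor gene, rose as well (0.73 ± 0.19, adjusted p = 0.0428 in edgeR with trended offsets, 0.684 with TMM factors). Between the shRNAs, Atf7, a relative of Atf2, and Mrtfb, a coactivator of serum response factor, were lower with Smndc1 shRNA (-0.63 ± 0.16 and -0.74 ± 0.20, adjusted p = 0.0265 and 0.0386 in edgeR with trended offsets, 0.536 and 0.334 with TMM factors). At TMM-normalised levels the libraries compared overlapped for Nab1, Pim1, Bach2, Atf7 and Mrtfb. In fits that left out 1 library, the call for Pim1 held in 4 of 9, for Maf in 6, for Bach2 in 3, for Atf7 in 4 and for Mrtfb in 3. Of each 9 fits, 3 left out a library of the group not compared. Among the fits that left out a compared library, Pim1 held only without Smndc1 shRNA replicate 3, and Bach2 only without Atrx shRNA replicate 3. Maf held there without empty vector replicate 1 or 3 or Atrx shRNA replicate 3. The highest adjusted p in these fits was 0.128 for Pim1 (without empty vector replicate 2), 0.172 for Maf and 0.379 for Bach2 (both without Atrx shRNA replicate 1), and 0.445 for Atf7 and 0.489 for Mrtfb (both without Atrx shRNA replicate 2).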

How the data were processed

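ATAC-seq was done on 9 libraries in 3 groups of 3. The deposited table holds raw counts per consensus region, whole numbers with no scaling by the authors, and a deposited region file gives positions on mm10. Reads were 75 bp paired-end, per the labels. The submitters' processing notes name MACS2 2.2.7.1, Bowtie2 2.4.4, bedtools 2.27.1, deepTools 3.5.1 and SAMtools 2.8.0. What each did, and whether a count is a read, a fragment or an insertion, is not given in the sources used here. Count columns matching no sample numbered 0.

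Counts were tested with edgeR 4.0.16 under R 4.3.3, by its quasi-likelihood F test (TMM factors, filterByExpr with a minimum count of 10, robust dispersion, all 9 libraries in 1 fit, 1 coefficient per group). Adjustment was by Benjamini-Hochberg over all 80345 regions tested (482 fell below the filter; all 38 member regions passed), with a call at an adjusted p under 0.05. A second fit used counts summed over the windows of 17004 coding genes, on their own library totals; neighbouring genes share regions. Trended offsets were loess curves (span 0.3) of each library's natural log count (0.5 added), as its deviation from the mean over libraries, against that mean. The script was tested on simulated data. Gene bounds came from the RefSeq table of the same build. A start region overlaps 250 bases before to 50 after the annotated start. Where no start was in the promoter table (Fosl1, Egr1), a region from 1000 bp outside to 500 bp inside a gene end was taken. Named were the members' windows, start regions and most open regions, any member region called, and called regions of the pathway list. The members and lists were chosen with earlier results of these data known. Alternatives were RLE and upper quartile factors, DESeq2 1.42.0, limma 3.58.1 voom, a minimum mean count of 50 or no filter, 6 libraries, a replicate block, each library left out in turn, replicate 3 left out of every group, an adjusted p under 0.01, and windows of 0, 5 and 50 kb. Libraries held 5.29 to 8.15 M counts each, and the errors given are those between libraries.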

Additional observations from a re-analysis of the deposited data

How the results depend on the processing

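The count of member regions and windows called was 0 in every comparison under all alternatives run, with 1 exception. With a replicate block and trended offsets, 1 member region passed with Atrx shRNA against empty vector, the region 6.7 kb upstream of Atf3 (0.73 ± 0.20 on the log2 scale, adjusted p = 0.0318 in edgeR, where 0.985% of all regions passed; the lowest and highest estimate over all alternatives were 0.58 and 0.80). Left-out libraries gave 0 to 0 member calls. Uncalled estimates of the members changed sign in 19, 24 and 20 of 300 window values and in 115, 131 and 90 of 1135 region values (Smndc1 shRNA, Atrx shRNA, between them). The cause was not tested for any of these.

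For the pathway list, the counts called, 0 with TMM factors, depended on the setting. With Smndc1 shRNA they were 3 with trended offsets, 2 with a mean count of at least 50 and 1 without replicate 3 of every group (4 with trended offsets as well, an alternative chosen after seeing the data). Leaving out 1 library gave 0 to 1 with TMM factors and 1 to 9 with trended offsets. With Atrx shRNA they were 2 with trended offsets, 1 with 6 libraries and 1 without replicate 3 (3 with trended offsets as well), and 0 to 1 and 0 to 4 with 1 library left out. Between the shRNAs they were 3 with trended offsets, 1 without replicate 3 (2 with trended offsets as well), and 0 to 0 and 0 to 3 with 1 library left out. Where the library left out was in a compared group, 3 against 2 remained, fitted with the spread of all groups. In the other fits 3 against 3 remained.

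The replicate numbers did not pair the libraries as a whole. Same-numbered deviations had r from -0.039 to 0.419, over 0.1 in 5 of 9 pairs. Of the libraries, 5 of 9 correlated best with their own number. The replicate 3 libraries did deviate together, with r from 0.313 to 0.419 between them. A replicate block gave 7, 2 and 2 pathway calls (Smndc1 shRNA, Atrx shRNA, between them) and 15, 7 and 3 with trended offsets as well, and 0 member calls apart from Atf3. Of all regions, 1.58, 0.288 and 0.764% passed with the block, and 2.64, 0.985 and 1.42% with trended offsets as well. The widest error of a member region with Atrx shRNA was at the weak region downstream of Jun, which lay at 2.78 CPM per kb with empty vector and had a log2 fold change of 1.31 ± 0.73 with Atrx shRNA.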
